A study of Mus musculus with 18 samples.

Results

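The liver open chromatin of CBA/J male mice was compared with that of 6 other inbred strains, C3H/HeJ, BALB/cJ, AKR/J, C57BL/6J, DBA/2J and A/J. The peak lists of the 7 strains were merged wherever peaks overlapped or touched, which gave 50121 sites on the 19 autosomes. CBA/J had a peak at 29283 of them. Of all sites, 989 had a peak in CBA/J only, 108 had a peak in each of the other 6 strains but none in CBA/J, and 13909 had a peak in all 7 strains. At these last sites the rank of the CBA/J peak was set against the mean rank of the other 6.

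Every strain is represented by 2 male mice that began a high-fat, high-sucrose diet at 8 weeks of age and were fed it for 8 weeks. No group on another diet was measured, so each value describes livers after this diet. The mice of the strains BXH2/TyJ and BXH19/TyJ, recombinant inbreds that descend from C57BL/6J and C3H/HeJ, were treated alike and are used here only beside the 7 inbred strains. In each strain the authors combined both mice into 1 list of peaks that were reproducible between them, so a strain gives 1 value with no replicate error, and tests can use only the spread between strains.

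FAIRE-seq sequences the DNA that stays free of protein when fixed chromatin is extracted, so that nucleosome-poor DNA appears as peaks of reads. Promoters of widely used genes are open in most cells, whereas distal elements such as enhancers and insulators differ more between cell types and individuals. CBA/J is an old inbred strain whose ancestry is partly shared with C3H/HeJ, as both strains were derived from a cross between the Bagg albino stock and DBA mice. All coordinates and sequences below are those of mm9, the genome of C57BL/6J, and not of CBA/J.

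The sites that set CBA/J apart most clearly are shown first, as 200 bases around a peak summit or as the longest stretch of them outside annotated UTRs. They are read on the plus strand of mm9, and capitals mark letters that match any of the 12 short motifs listed further on. The first 4 are peaks found in CBA/J only, with the highest CBA/J signal among such sites with enough sequence outside UTRs. They lie at chr11:104087138-104087337, chr9:40889083-40889282, chr1:129260283-129260482 and chr9:122754627-122754826, and are named by the closest gene.
Mapt: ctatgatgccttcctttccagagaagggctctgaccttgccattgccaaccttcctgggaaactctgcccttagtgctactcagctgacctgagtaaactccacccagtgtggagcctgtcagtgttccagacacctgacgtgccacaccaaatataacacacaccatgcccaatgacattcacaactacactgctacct
Ubash3b: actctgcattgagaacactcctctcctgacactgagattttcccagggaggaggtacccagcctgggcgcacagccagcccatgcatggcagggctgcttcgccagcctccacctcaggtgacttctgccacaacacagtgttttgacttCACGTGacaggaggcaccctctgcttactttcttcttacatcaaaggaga
Mgat5: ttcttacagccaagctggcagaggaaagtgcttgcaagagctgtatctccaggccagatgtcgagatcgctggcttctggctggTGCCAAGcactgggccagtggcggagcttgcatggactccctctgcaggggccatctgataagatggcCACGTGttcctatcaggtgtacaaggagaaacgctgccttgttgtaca
Zfp445: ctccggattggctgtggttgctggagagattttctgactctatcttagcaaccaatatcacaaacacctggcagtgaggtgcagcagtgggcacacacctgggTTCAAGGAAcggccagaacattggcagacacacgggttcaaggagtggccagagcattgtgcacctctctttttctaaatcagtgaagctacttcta

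The next 4 had a strong peak in the other 6 strains and none in CBA/J, and are cut around the C3H/HeJ summit. Their positions are chr16:91619272-91619369, chr9:110897245-110897444, chr16:56064517-56064716 and chr9:37228355-37228554.
Dnajc28: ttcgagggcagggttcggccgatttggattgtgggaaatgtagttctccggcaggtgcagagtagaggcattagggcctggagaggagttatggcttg
Rtp3: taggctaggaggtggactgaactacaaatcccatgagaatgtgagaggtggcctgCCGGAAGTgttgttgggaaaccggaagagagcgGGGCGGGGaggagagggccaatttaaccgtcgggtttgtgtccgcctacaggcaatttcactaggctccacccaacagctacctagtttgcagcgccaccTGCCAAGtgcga
Senp7: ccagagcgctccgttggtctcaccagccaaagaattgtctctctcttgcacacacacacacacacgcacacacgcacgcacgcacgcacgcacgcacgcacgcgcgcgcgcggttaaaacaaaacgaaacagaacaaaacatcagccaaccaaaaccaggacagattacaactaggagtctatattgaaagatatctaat
Robo3: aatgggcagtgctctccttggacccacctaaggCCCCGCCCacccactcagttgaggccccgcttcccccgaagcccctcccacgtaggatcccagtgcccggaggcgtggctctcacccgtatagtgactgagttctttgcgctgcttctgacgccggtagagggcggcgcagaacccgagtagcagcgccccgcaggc

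The last 4 had a peak in all 7 strains. Rac1 ranked furthest above the other strains in CBA/J, at chr5:144288905-144289059, and the other 3 ranked furthest below them, at chr1:137327077-137327221, chr9:26807152-26807261 and chr5:125079469-125079668.
Rac1: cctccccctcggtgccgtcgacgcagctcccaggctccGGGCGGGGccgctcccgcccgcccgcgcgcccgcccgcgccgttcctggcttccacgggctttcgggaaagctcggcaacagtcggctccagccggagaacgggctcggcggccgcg
Ipo9: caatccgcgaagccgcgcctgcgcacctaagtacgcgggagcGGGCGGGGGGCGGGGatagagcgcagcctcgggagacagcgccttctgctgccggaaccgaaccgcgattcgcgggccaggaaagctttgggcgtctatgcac
Acad8: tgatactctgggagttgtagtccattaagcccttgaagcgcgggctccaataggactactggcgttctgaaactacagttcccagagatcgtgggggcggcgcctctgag
Atp6v0a2: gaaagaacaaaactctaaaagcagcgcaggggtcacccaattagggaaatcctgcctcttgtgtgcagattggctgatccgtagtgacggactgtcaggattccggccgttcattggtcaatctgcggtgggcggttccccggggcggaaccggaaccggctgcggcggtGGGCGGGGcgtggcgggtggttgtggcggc
The capitals of Ipo9 join 2 matches of the SP1 letters.

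The CBA/J list held 30613 peaks, against 26769 (DBA/2J) to 30598 (C57BL/6J) in the other strains, and its median peak width was 501 bp, against 376 to 542 bp. The read depth behind the lists is not contained in them, and a site without a peak can be open below the threshold of the caller. Signal was therefore compared only as a percentile, the rank of a peak within the list of its own strain from 0 (weakest) to 100 (strongest). The labelled tissue was checked on promoters, defined as sites within 1000 bp of the transcription start site (TSS) of a protein-coding gene. In CBA/J, 17 of 18 hepatocyte transcription factor genes and 17 of 20 genes of hepatocyte secreted proteins had a promoter peak. None of the 8 Kupffer cell, 8 endothelial and 8 lymphocyte marker genes did, while 1 of 8 stellate cell and 1 of 6 bile duct marker genes did. A/J had promoter peaks at 3 endothelial, 3 stellate and 2 bile duct markers, and the other 5 strains at no more than 1 of any of these lists. The list of A/J stood apart from the rest in most counts, and that of DBA/2J in the number of missing sites, so results that rest on them are also given without them.

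CBA/J had the fewest sites of its own. A peak in CBA/J only was found at 989 sites (1.97% of all autosomal sites), against 1036 in C3H/HeJ, 1228 in DBA/2J, 1479 in BALB/cJ, 1653 in C57BL/6J, 2095 in AKR/J and 7084 in A/J. A peak missing in CBA/J only was found at 108 sites (0.215%), against 54 in C3H/HeJ, 143 in BALB/cJ, 174 in AKR/J, 403 in C57BL/6J, 980 in DBA/2J and 3237 in A/J. The difference from the mean of the other 6 strains did not pass an exact permutation test over the 7 strains for either count (two-sided p = 0.286 for sites of 1 strain only, 0.429 for missing sites, both 0.762 after adjustment over 8 measures). The smallest p this design allows is 0.143, so no single strain could have passed it. Without A/J and DBA/2J there were 1299 sites in CBA/J only and 325 missing in CBA/J only, and without DBA/2J alone 191 were missing.

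**Figure D1:**
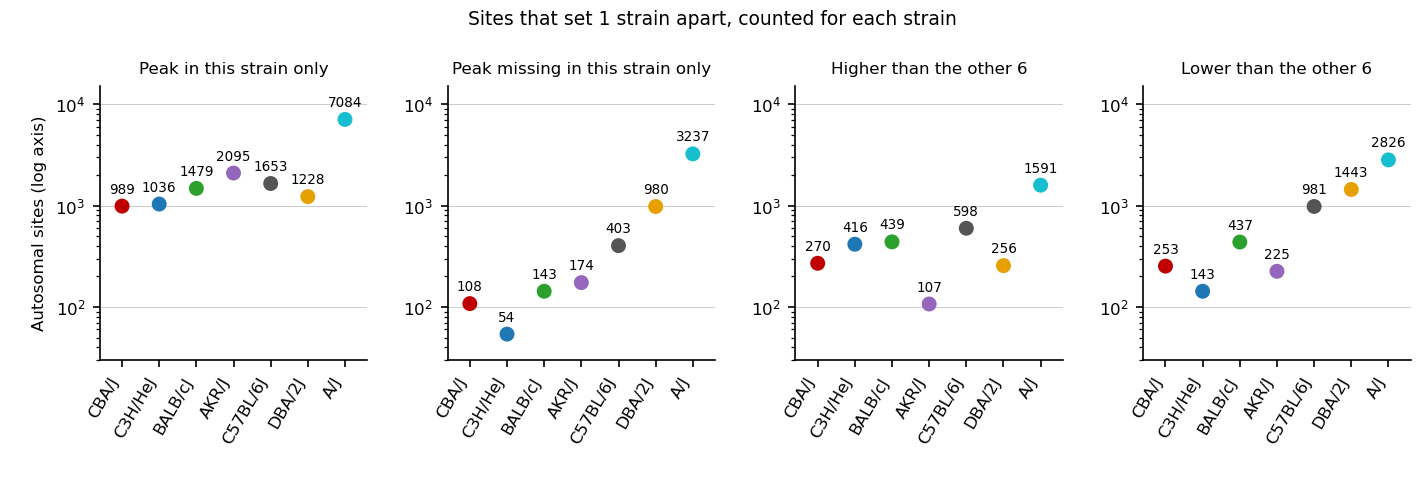
Number of autosomal sites (log axis) that set each of the 7 inbred strains apart from the other 6, in 4 panels, with 1 point per strain and no error because a strain has 1 list. CBA/J is leftmost and has 989 sites of its own, 108 missing sites, 270 higher and 253 lower sites, whereas A/J is highest in every panel.

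At sites called in 1 other strain, CBA/J had a peak at 10.1%, and this share was 35.7%, 61.9%, 82.0%, 94.4% and 99.2% at sites called in 2, 3, 4, 5 and 6 other strains. CBA/J shared most with C3H/HeJ. The sites called in both made up 73.7% of those called in either, against 72.9% with BALB/cJ, 70.6% with AKR/J, 69.2% with C57BL/6J, 61.6% with DBA/2J and 45.4% with A/J. CBA/J and C3H/HeJ alone had a peak at 435 sites. For CBA/J and 1 other strain alone this count was 401 with C57BL/6J, 294 with BALB/cJ, 222 with AKR/J, 166 with A/J and 111 with DBA/2J, a different order. Ranks at the 13909 sites called in all 7 strains put the strains in the same order as the shares of sites called in either. The Spearman coefficient across sites was 0.889 between CBA/J and C3H/HeJ and 0.624 between CBA/J and A/J. These are descriptions across sites, which are not independent replicates.

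Sites with a peak in CBA/J only were mostly weak. Their median percentile was 9.34 (interquartile range 4.41 to 16.6), and the strain-only sites of the other strains had medians of 10.6 (C3H/HeJ) to 22.3 (A/J). Only 173 of the 989 lay at or above percentile 20, and 4 at or above percentile 50. The nearest peak of another strain was 7 bp away at the closest and 9036 bp away in the median, and 86 sites had one within 500 bp. At the 1629 sites called in CBA/J and 1 other strain, the peaks overlapped by at least 47 bp and by 270 bp in the median.

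The 4 strongest lay near Mapt, Ubash3b, Mgat5 and Amigo3. Mapt encodes tau, a protein that stabilises microtubules. Its CBA/J peak ranked at percentile 71.6 and lay 5245 bp upstream of the TSS between genes (chr11:104087065-104087459), while none of the other 8 strains, BXH2/TyJ and BXH19/TyJ included, had a peak there. Ubash3b encodes a phosphatase that dampens T cell receptor signalling, and a CBA/J peak at percentile 61.6 lay 1440 bp upstream of its TSS, in an annotated intron (chr9:40889029-40889450). Mgat5, which encodes an enzyme that branches the sugar chains of glycoproteins, had a CBA/J peak at percentile 61.0 in an intron 56880 bp downstream of the TSS (chr1:129260219-129260561). Amigo3, encoding a cell adhesion protein, had one at percentile 56.4 in an exon 2003 bp downstream of the TSS (chr9:107957493-107958178). None of these 3 sites had a peak in either BXH strain.

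Below these, the CBA/J-only peaks with the highest ranks were at percentile 48.9 near Zfp445 (a zinc finger protein that maintains imprinting), 45.0 near Gbp5 (an interferon-induced GTPase), 40.8 near Rrm2 (a subunit of ribonucleotide reductase) and 40.3 near Nfkbiz (a nuclear regulator of NF-kB targets). The Gbp5 and Nfkbiz peaks lay 2755 bp and 2682 bp upstream of the TSS. Further peaks were found near Arhgap10 (39.7), Gm53 (38.4), Hlcs (37.8), Ifltd1 (37.1), Trpm7 (36.7) and Actl7b (35.9), and 1 at percentile 39.6 had no protein-coding TSS within 100 kb. Hlcs encodes the enzyme that attaches biotin to carboxylases, and Trpm7 an ion channel fused to a kinase. Of these 15 sites, Rrm2 (4.50), Ifltd1 (47.4) and Actl7b (29.6) also had a peak in BXH2/TyJ and Hlcs (35.6) in BXH19/TyJ, the value being the percentile there. At Ifltd1 the recombinant strain thus ranked above CBA/J.

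CBA/J-only sites were distal. Promoters made up 4.85% of them (95% exact Clopper-Pearson interval 3.60 to 6.38%, 48 of 989), against 5.21% (BALB/cJ) to 41.1% (A/J) of the strain-only sites of the other strains and 30.6% of all sites. A further 5.86% lay in exons, 42.0% in introns and 47.3% between genes. The median distance to the closest TSS was 20754 bp, against 7000 bp over all sites. They were narrow, with a median width of 282 bp against 494 bp over all sites, and had a mean GC content of 50.4% ± 3.60 (SD over 989 sites) against 54.7% ± 7.22 over all 50121 sites. Sites of 1 other strain only had a median distance of 7862 bp, a median width of 339 bp and a mean GC content of 55.5%. Without A/J-only sites these were 15536 bp, 303 bp and 48.9%, so such traits were not particular to CBA/J. A site of 1 strain is also not widened by merging with peaks of other strains. The promoter share did not pass the exact permutation test over the 7 strains (two-sided p = 0.286), and intervals here and below cover counting error only.

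The authors also deposited 2 sets of sites, the most variable and the least variable across strains by their own test of read counts. Of the CBA/J-only sites, 16.6% (14.3 to 19.0%) were in the least variable set and 1.21% (0.628 to 2.11%) in the most variable one. Among sites called in 1 other strain only, these shares were 2.41% and 7.19%, or 4.50% and 3.86% when A/J-only sites were left out. Over all sites they were 5.05% and 5.002%. Mapt, Amigo3, Nfkbiz and Ifltd1 were in the most variable set and Actl7b in the least variable one.

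Sites missing in CBA/J only included strong peaks of the other strains. The median over these 108 sites was 34.9 for the mean percentile of the other 6 strains and 10.3 for the lowest of the 6. At 25 sites every other strain ranked at or above percentile 20, and at 5 sites at or above percentile 50. These 5 lay near Dnajc28, Rtp3, Senp7, Robo3 and Ubl5.

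Dnajc28 encodes a member of the DnaJ family of heat shock protein partners. At its TSS (chr16:91618892-91619472) CBA/J had no peak, against percentiles of 72.8 in C3H/HeJ, 69.1 in BALB/cJ, 78.5 in AKR/J, 84.98 in C57BL/6J, 80.03 in DBA/2J and 71.2 in A/J. BXH2/TyJ and BXH19/TyJ ranked at 74.6 and 75.3, within the range of these 6. The site near Rtp3, a receptor transporter gene named for its role in trafficking taste receptors, lay 4880 bp upstream of the TSS (chr9:110897097-110897794). It had no peak in CBA/J, against 88.4 in C3H/HeJ, 92.5 in BALB/cJ, 82.9 in AKR/J, 79.8 in C57BL/6J, 78.8 in DBA/2J and 67.3 in A/J. Senp7, which encodes a SUMO protease, had a distal site (chr16:56064417-56064919) without a peak in CBA/J, against 61.3 (BALB/cJ) to 89.6 (C3H/HeJ) in the others. A site in an exon 8968 bp downstream of the TSS of Robo3, an axon guidance receptor, was likewise without a peak in CBA/J, against 60.9 (C57BL/6J) to 80.2 (AKR/J). At the TSS of Ubl5, a ubiquitin-like protein that acts in splicing (chr9:20448795-20449815), CBA/J had no peak, against 56.9 (A/J) to 82.3 (DBA/2J). At all 5 sites both BXH strains had a peak between percentile 61.3 and 89.0, so CBA/J was the only 1 of 9 strains without a call.

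The next 10 missing sites by the lowest of the other strains lay near Rhou (39.5), Slc45a1 (38.3), Gipc2 (38.2), Itsn1 (35.7), Pitpnm2 (30.2), Plekhg3 (27.1), Usp42 (26.0), Pck1 (24.9), Hspb1 (24.9) and Erg (24.9), the value being the lowest percentile among the 6. Pck1 encodes phosphoenolpyruvate carboxykinase, the rate-limiting enzyme of glucose production, and its missing site lay in an exon 6126 bp downstream of the TSS (chr2:172984675-172986525). It ranked at 24.9 in C3H/HeJ, 73.1 in BALB/cJ, 38.1 in AKR/J, 50.2 in C57BL/6J, 61.7 in DBA/2J and 42.7 in A/J. Hspb1 encodes the small heat shock protein Hsp27, and its promoter had no CBA/J peak, against 24.9 (AKR/J) to 60.1 (DBA/2J). Erg is an ETS transcription factor of endothelial cells, and a site 49813 bp upstream of its TSS was missing in CBA/J, against 24.9 (A/J) to 85.8 (C57BL/6J). A site 8875 bp upstream of the TSS of Srebf1, the master regulator of fatty acid synthesis, was missing in CBA/J, against 23.7 (C57BL/6J) to 46.2 (DBA/2J).

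Promoters made up 33.3% (24.6 to 43.1%, 36 of 108) of the sites missing in CBA/J only, against 8.25% (A/J) to 49.6% (C57BL/6J) of the sites missing in only 1 of the other strains. The exact permutation test over the 7 strains gave a two-sided p of 0.857. Exons held 11.1% and introns 33.3% of the sites, and 22.2% lay between genes. Their median width was 680.5 bp and their mean GC content 56.7% ± 5.34 (SD over 108 sites). In the authors' most variable set were 6.48% (2.65 to 12.9%) of them, Dnajc28, Erg and Pfkfb4 included, and in the least variable set 2.78% (0.577 to 7.90%). The sites near Rtp3, Senp7, Robo3, Ubl5, Pck1, Hspb1 and Srebf1 were in neither set.

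The lists of BXH2/TyJ and BXH19/TyJ had no part in choosing the sites. Of the CBA/J-only sites, 17.3% (14.98 to 19.8%) had a peak in BXH2/TyJ and 11.1% (9.23 to 13.2%) in BXH19/TyJ, though neither strain descends from CBA/J. For the strain-only sites of the other 6 strains the range was 1.24% (AKR/J) to 16.996% (A/J) in BXH2/TyJ and 1.45% (A/J) to 31.5% (AKR/J) in BXH19/TyJ. Of the sites missing in CBA/J only, 89.8% (82.5 to 94.8%) had a peak in BXH2/TyJ and 72.2% (62.8 to 80.4%) in BXH19/TyJ, against 86.0 to 94.3% and 76.2 to 96.2% of the sites missing in 1 of the other strains only. The share in BXH19/TyJ was the lowest of the 7 strains, and its interval overlaps the lower part of that range.

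At the sites called in all 7 strains CBA/J stayed close to the others. The difference between its percentile and the mean of the other 6 was within 10 points at 73.3% of the 13909 sites, with a median of 2.53 points, 1.27 over 8347 promoters and 5.65 over 5562 distal sites. The overall median was 0.198 points when percentiles were ranked anew among these sites. At the distal sites the median percentile was 67.5 in CBA/J, against 68.7 in C3H/HeJ, 67.6 in BALB/cJ, 66.7 in C57BL/6J, 65.1 in AKR/J, 58.7 in DBA/2J and 48.5 in A/J, so CBA/J was level with C3H/HeJ and BALB/cJ there. A site was called higher or lower where CBA/J lay outside the range of the other 6 and at least 20 points from their mean. Higher sites numbered 270 (1.94%) and lower sites 253 (1.82%), against 107 (AKR/J) to 1591 (A/J) higher and 143 (C3H/HeJ) to 2826 (A/J) lower sites when another strain took the place of CBA/J. Neither count passed the exact permutation test over the 7 strains (two-sided p = 0.571 each). The smallest differences among called sites were 20.01 points for higher and -20.02 for lower sites, and the closest that were not called stood at 19.96 and -19.997. With ranks taken anew, 320 were higher and 423 lower, and 155 of the 270 and 143 of the 253 kept their call.

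**Figure D2:**
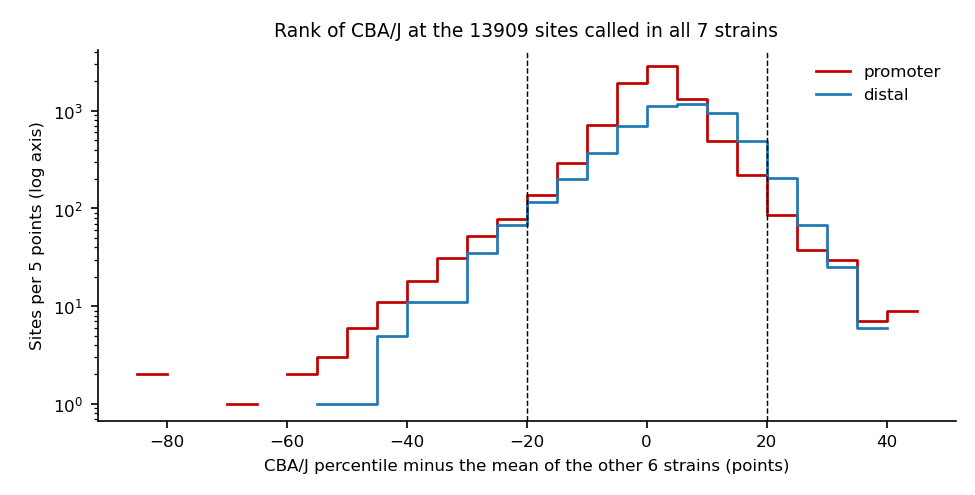
Number of sites per 5 points (log axis) by the CBA/J percentile minus the mean of the other 6 strains, for the 8347 promoters and 5562 distal sites called in all 7 strains, with dashed lines at 20 points on either side. Promoters reach far below the left line, down to -84.1 points, while distal sites have a median of 5.65 points, with A/J and DBA/2J the lowest of the 6 strains in the mean.

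Promoters made up 62.8% (56.6 to 68.8%, 159 of 253) of the lower sites, near the 60.01% over all sites called in 7 strains, and 26.7% (21.5 to 32.4%, 72 of 270) of the higher sites. When another strain took the place of CBA/J, the promoter share was 23.2% (A/J) to 68.7% (C57BL/6J) of its lower sites and 11.5% (C3H/HeJ) to 76.3% (A/J) of its higher sites. Higher sites thus held fewer promoters than lower sites in CBA/J and in each other strain except A/J. CBA/J lay at least 20 points below every other strain at 31 sites and at least 20 points above every other strain at 1 site. With a distance of 10 points these counts were 132 and 60. At higher sites C3H/HeJ was the strain closest to CBA/J most often (80 of 270), and at lower sites BALB/cJ (77 of 253). A/J was the farthest from CBA/J at 111 of the higher and 137 of the lower sites. Without A/J and DBA/2J there were 288 higher and 264 lower sites.

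The 12 sites furthest below the other strains were all promoters. The mean percentile of the other 6 strains there ran from 49.8 (Gpr3) to 98.0 (Smarcc1), so most left more room to fall than to rise. What part this had in the choice of sites was not tested. Ipo9 encodes importin 9, a carrier of proteins into the nucleus. Its TSS (chr1:137326608-137327476) ranked at percentile 3.32 in CBA/J, against 85.05 in C3H/HeJ, 80.2 in BALB/cJ, 91.1 in AKR/J, 91.3 in C57BL/6J, 82.5 in DBA/2J and 94.2 in A/J, a difference of -84.1 points. Acad8, encoding isobutyryl-CoA dehydrogenase of valine breakdown, ranked at 0.384 in CBA/J, against 84.2, 81.3, 79.7, 88.5, 85.3 and 66.8 in the same order of strains (chr9:26806623-26807453, -80.6 points). Thus at both promoters the CBA/J peak was among the weakest of its list, and the other 6 strains had theirs in the upper part. Of the 12 promoters, only Smarcc1, Plekhb2 and Zc3h14 were in the authors' most variable set. That set held 3.16% of the lower and 1.48% of the higher sites, against 1.32% of all sites called in all 7 strains. That CBA/J does not overlap with the others is set by the definition of a lower site.

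Atp6v0a2, a subunit of the proton pump that acidifies vesicles, ranked at 19.6 in CBA/J and at 78.7 (DBA/2J) to 88.3 (AKR/J) in the others (chr5:125079367-125080559, -65.6 points). Smarcc1, a core subunit of the SWI/SNF chromatin remodelling complex, ranked at 39.9 in CBA/J and at 97.0 (BALB/cJ) to 99.9 (C3H/HeJ) in the others (chr9:110034040-110035125, -58.1 points). The 6 other strains thus had Smarcc1 among their strongest peaks within 3 points of each other. A like pattern was seen at Ptpn23, an endosomal protein of the phosphatase family (48.0 in CBA/J, 92.8 to 97.5 in the others), and at Zc3h14, a poly(A)-binding protein (45.3 in CBA/J, 85.05 to 98.6 in the others). Wdr6, a WD repeat protein, ranked at 18.3 in CBA/J and at 52.2 (C57BL/6J) to 77.5 (A/J) in the others. Both BXH strains ranked between 73.3 and 99.6 at these 5 promoters, counting Atp6v0a2, far above CBA/J.

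At other promoters CBA/J had company. Aqp11, a water channel of the endoplasmic reticulum, ranked at 6.00 in CBA/J and also low in DBA/2J (13.7) and C3H/HeJ (30.1), against 82.3 in C57BL/6J, 86.4 in AKR/J, 88.4 in BALB/cJ and 91.85 in A/J. Rps3, a protein of the small ribosomal subunit on the same chromosome, ranked at 9.59 in CBA/J, 16.2 in C3H/HeJ and 18.9 in DBA/2J, against 66.8 in A/J, 83.4 in C57BL/6J, 85.3 in AKR/J and 92.4 in BALB/cJ. At both sites CBA/J, C3H/HeJ and DBA/2J ranked below the other 4 strains. This split was singled out after the values had been seen and was not counted over other sites, so no grouping of strains is drawn from it. BXH2/TyJ and BXH19/TyJ ranked at 59.0 and 90.3 at Aqp11, and at 87.0 and 92.0 at Rps3. The sites lie at chr7:104885809-104887164 and chr7:106631590-106632557. Slc30a10, a manganese exporter of liver and intestine, ranked at 0.650 in CBA/J and at 23.6 (C57BL/6J) to 72.0 (A/J) in the others. Plekhb2 ranked at 13.0 in CBA/J, against 42.0 to 84.2, and Gpr3, a G protein-coupled receptor, at 1.86, against 33.4 to 75.1. All 12 promoters were also called lower when ranks were taken anew among the sites called in all 7 strains, with differences of -88.2 (Smarcc1) to -20.3 points (Gpr3).

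**Figure D3:**
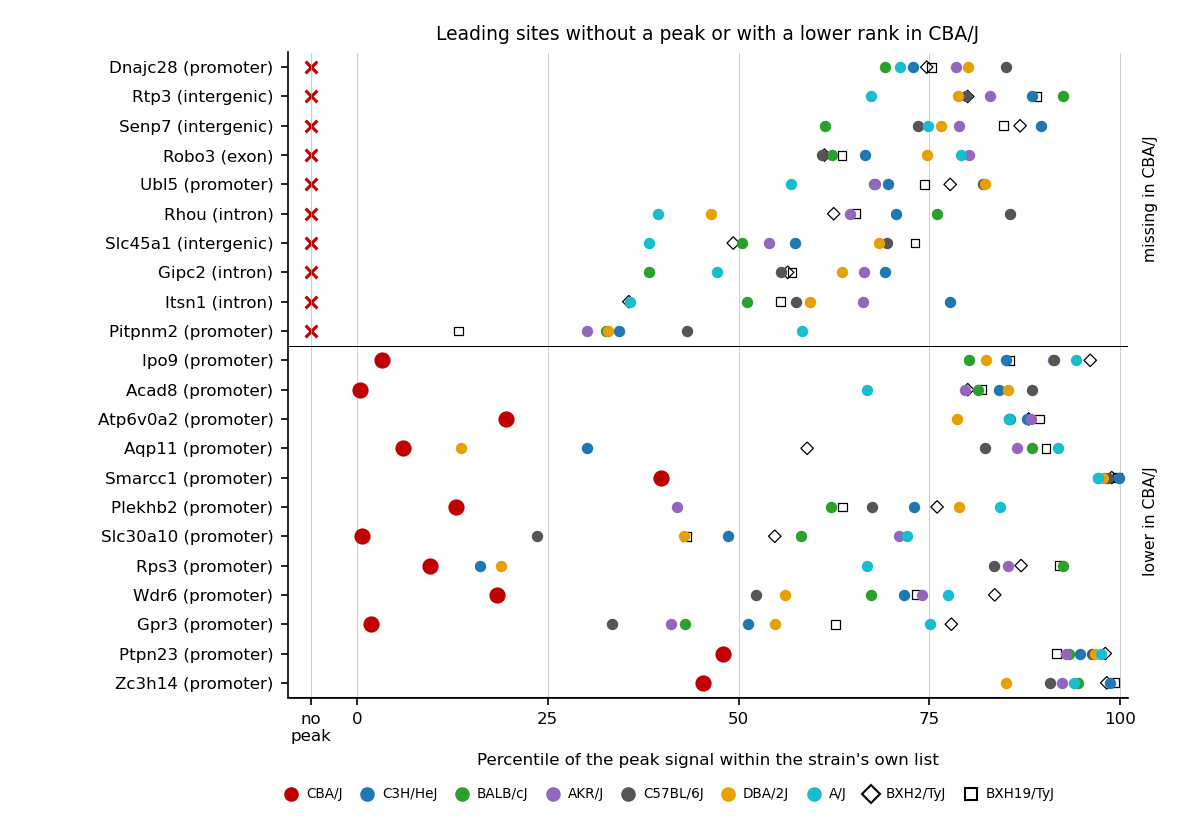
Percentile of the peak within the list of its own strain (horizontal axis) at the 10 leading sites missing in CBA/J (above, cross for no peak) and the 12 sites furthest below the other strains (below), with 1 filled point per inbred strain and open symbols for BXH2/TyJ and BXH19/TyJ. CBA/J is at 3.32 at Ipo9 and 39.9 at Smarcc1, to the left of every other strain in each row, and C3H/HeJ and DBA/2J come near it at Aqp11 and Rps3.

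The 12 sites furthest above the other strains were led by 9 promoters. Rac1, a small GTPase of the actin cytoskeleton, ranked at 96.4 in CBA/J, against 45.1 in C3H/HeJ, 73.2 in BALB/cJ, 58.5 in AKR/J, 15.95 in C57BL/6J, 33.4 in DBA/2J and 82.5 in A/J (chr5:144288069-144289542, 45.0 points above the mean). Hint1, a nucleotide hydrolase, ranked at 92.7 in CBA/J, against 44.3, 81.0, 55.5, 29.95, 3.47 and 82.8 in the same order (43.2 points). Gars, the glycyl-tRNA synthetase, ranked at 94.99 in CBA/J and at 21.2 (DBA/2J) to 84.2 (A/J) in the others (41.3 points). At these promoters the other strains were spread widely, with A/J next to CBA/J and DBA/2J or C57BL/6J lowest.

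The remaining promoters followed the same order of strains in part. Ythdf2, a reader of N6-methyladenosine in RNA, ranked at 87.9 in CBA/J and 86.9 in A/J, against 6.84 in DBA/2J. Nudt3 (86.4 in CBA/J, 86.0 in A/J) and Aagab (90.5 and 87.7) were as close, and a difference of 3 points or less between strains is smaller than the median distance of 4.85 points between CBA/J and C3H/HeJ, the closest pair of CBA/J. Ube2cbp and Lysmd3 ranked at 94.4 and 95.3 in CBA/J, with A/J next at 82.3 and 86.5. At the ninth promoter, Usp46, a deubiquitinase, CBA/J ranked at 83.8, C3H/HeJ at 69.5 and DBA/2J at 68.4, with AKR/J lowest at 5.88.

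The recombinant strains were also high at these promoters. Rac1 ranked at 98.7 in BXH2/TyJ and 96.5 in BXH19/TyJ, against 15.95 in C57BL/6J and 45.1 in C3H/HeJ, the parents of both. Over the 72 promoters that were higher in CBA/J, BXH2/TyJ ranked above both parents at 56 of the 70 where it had a peak and BXH19/TyJ at 60 of 71 (84.5%). Over all promoters called in 7 strains the shares were 43.7% and 38.3%. The 72 promoters were chosen with both parents below CBA/J, which favours shares above those of all promoters in advance. No conclusion is therefore drawn from this difference. The medians over the 72 promoters were 89.6 in CBA/J, 95.9 in BXH2/TyJ, 88.4 in BXH19/TyJ and 83.8 in A/J, against 70.1 in BALB/cJ, 63.5 in C3H/HeJ, 61.5 in AKR/J, 43.0 in C57BL/6J and 39.6 in DBA/2J. At the 159 lower promoters BXH2/TyJ also ranked above both parents at 61.8%, with a median of 70.4 against 25.5 in CBA/J, and BXH19/TyJ did so at 27.2%. BXH2/TyJ was thus high at promoters on both sides of CBA/J. What part the libraries themselves had in this order was not tested. At the 198 higher distal sites the medians were 70.2 in CBA/J, 58.8 in C3H/HeJ and 23.9 in A/J. BXH2/TyJ ranked above both parents at 23.4% of them and BXH19/TyJ at 38.5%, where each had a peak. Over all distal sites called in 7 strains the shares were 17.2% and 22.4%, and the same limit from the choice of sites holds.

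The 3 distal sites among the leading 12 lay near Lmnb2, Scube1 and Tbx1. Lmnb2 encodes lamin B2 of the nuclear envelope, and an intron site 3367 bp downstream of its TSS ranked at 79.1 in CBA/J, 72.2 in C3H/HeJ and 0.415 in DBA/2J. Tbx1, a T-box transcription factor, had a site 12346 bp downstream at 64.1 in CBA/J, 62.0 in C3H/HeJ and 61.7 in C57BL/6J, against 27.8 or less in the other 4. In an intron of Scube1 CBA/J (62.2) and C3H/HeJ (61.1) were also alike, against 33.8 or less elsewhere. Scube1 and Tbx1 lost the call when ranked anew (19.4 and 18.7 points), whereas the other 10 kept it.

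**Figure D4:**
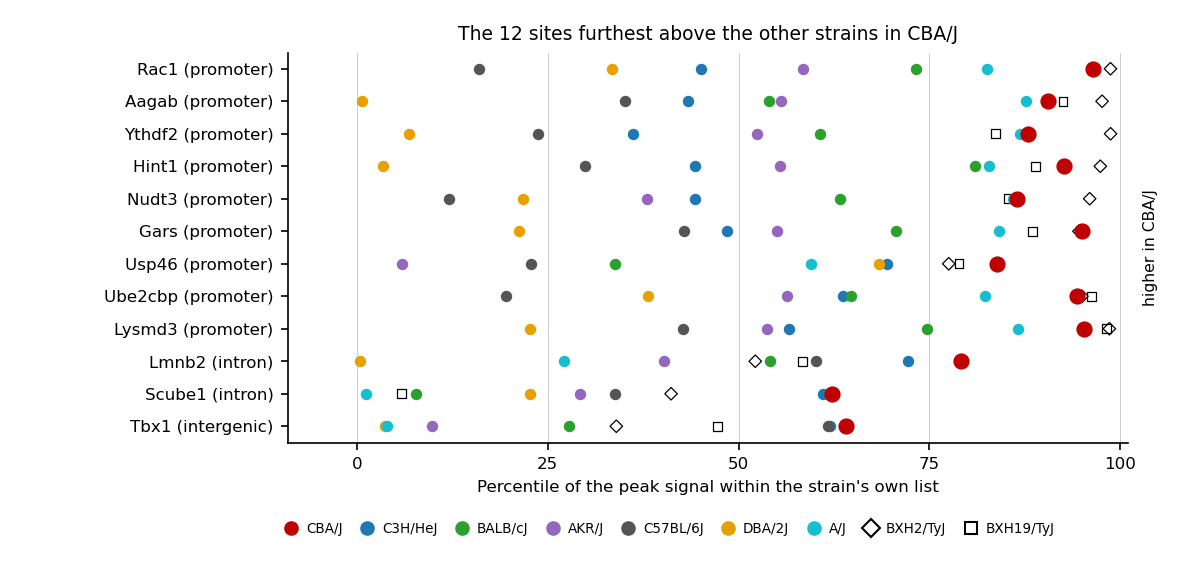
Percentile of the peak within the list of its own strain (horizontal axis) at the 12 sites furthest above the other strains in CBA/J, with 1 filled point per inbred strain and open symbols for BXH2/TyJ and BXH19/TyJ. At Rac1 CBA/J is at 96.4 and C57BL/6J at 15.95, and A/J and both BXH strains sit near CBA/J in most of the 9 promoter rows but not in the rows of Lmnb2, Scube1 and Tbx1.

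Several of these sites lay close together. On chromosome 9 of mm9, between the CBA/J-only peak at Amigo3 and the missing site near Rtp3, lay the lower promoters of Wdr6, Smarcc1 and Ptpn23 and a missing site in an exon 15038 bp downstream of the TSS of Pfkfb4, an enzyme that sets the level of fructose-2,6-bisphosphate. The Pfkfb4 site (chr9:108909047-108909681) had no peak in CBA/J and low ranks in C57BL/6J (21.8) and DBA/2J (36.3), against 74.5 in C3H/HeJ, 74.7 in BALB/cJ, 82.0 in A/J and 82.2 in AKR/J. Plxnb1, a semaphorin receptor, had a CBA/J-only peak at 32.6 in the same megabase. That megabase, from 108 to 109 Mb, held 4 CBA/J-only sites and 1 missing site among 73. Among its 30 sites called in all 7 strains, 2 were lower and 2 higher. The 2 higher ones were the promoters of Usp4, a deubiquitinase (89.2 in CBA/J, 33.8 to 86.6 in the others), and Prkar2a, a regulatory subunit of protein kinase A (91.3 in CBA/J, 8.002 to 83.9 in the others). Shares over all autosomal sites were 1.97% CBA/J only and 0.215% missing, and over those called in all 7 strains 1.94% higher and 1.82% lower. The interval on chromosome 9 was singled out after its values had been seen, and counts this low leave its shares uncertain.

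Of 2110 windows of 1 Mb with a site, 741 held a CBA/J-only or missing site and 6 held 5 or more. The highest number was 6, at 121 to 122 Mb of chromosome 9 and at 135 to 136 Mb of chromosome 5, among 77 and 88 sites. The first held CBA/J-only peaks near Cck, Lyzl4, Vipr1, C85492 and Snrk, a missing and a higher site in introns of Trak1 and a lower site near Cyp8b1. The second held CBA/J-only peaks near Lat2, Eln, Cldn13 and Fzd9 and a missing site near Clip2. Windows with 5 were at 61 to 62 Mb and 108 to 109 Mb of chromosome 9, 91 to 92 Mb of chromosome 16 and the megabase from 102 Mb of chromosome 11. The chromosome 16 window held the missing sites of Dnajc28 and Itsn1, an endocytic scaffold protein, and this chromosome had the highest share of missing sites of all autosomes (0.566%, 9 of 1590). Chromosome 9 had the highest share of CBA/J-only sites (2.53%, 71 of 2808), with the other autosomes between 1.47% and 2.44%.

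The sequence of each site was searched in its central 300 bases, on both strands, for 12 sets of letters, and matches of different motifs may overlap. Those of nuclear receptors and homeobox factors of the liver were CAAAGTCCA for HNF4A and GTTAATNAT for HNF1. The forkhead letters of FOXA were TGTTTAC. Those of C/EBP, a family of leucine zipper factors of the hepatocyte, were TTGCNNAA. A site of the NFI family was searched as CTTGGCA. The CTCF core was AGGGGGCGC, and the promoter factors ETS, NRF1 and SP1 were searched as CCGGAAGT, GCGCATGCG and GGGCGGGG. STAT, which answers to cytokines and growth hormone, was searched as TTCNNNGAA. The AP-1 letters, bound by Fos and Jun proteins, were TGANTCA. The E-box of clock and other basic helix-loop-helix factors was CACGTG. A match is a description of the mm9 letters, not of binding. CTCF is the protein that binds insulators and loop anchors. Its core letters were in 3.51% (2.43 to 4.89%, 33 of 941) of the distal CBA/J-only sites, against 2.97% for A/J, 0.631% for DBA/2J, 0.591% for C57BL/6J, 0.428% for BALB/cJ, 0.0514% for AKR/J and 0 of 973 for C3H/HeJ (interval up to 0.378%). All distal sites together held them in 1.29%.

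Leaving out the sites of any 1 strain only, 270 distal sites with the core were called in 2 or more strains. CBA/J had a peak at 81.5% of them (220), against 77.8% of all distal sites called in 2 or more strains. A/J had one at 65.6%, against 44.2%, and the other 5 strains at 45.9% (DBA/2J) to 65.6% (AKR/J), each below its share of all such distal sites. The excess in CBA/J was thus small outside its own sites. The 33 CBA/J-only sites with the core were weak, with a median percentile of 8.62 and a highest of 29.9, and 9 of them had a peak in BXH2/TyJ and 2 in BXH19/TyJ. The 4 with the highest signal outside UTRs among them are given below to show the core in its context, with the core in capitals and read on its own strand. They lie at chr14:70870218-70870258 (plus strand, percentile 28.2), chr9:49055116-49055156 (plus, 26.5), chr9:110825442-110825482 (plus, 23.3) and chr16:35628468-35628508 (minus, 19.7).
Phyhip: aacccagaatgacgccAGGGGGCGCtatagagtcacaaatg
Gm4894: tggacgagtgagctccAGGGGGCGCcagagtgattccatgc
Tdgf1: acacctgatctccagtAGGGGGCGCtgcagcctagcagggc
Sema5b: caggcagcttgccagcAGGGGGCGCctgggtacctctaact
This comparison was singled out among the 12 motifs after the values had been seen, and whether it stems from the animals or the libraries was not tested.

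**Figure D5:**
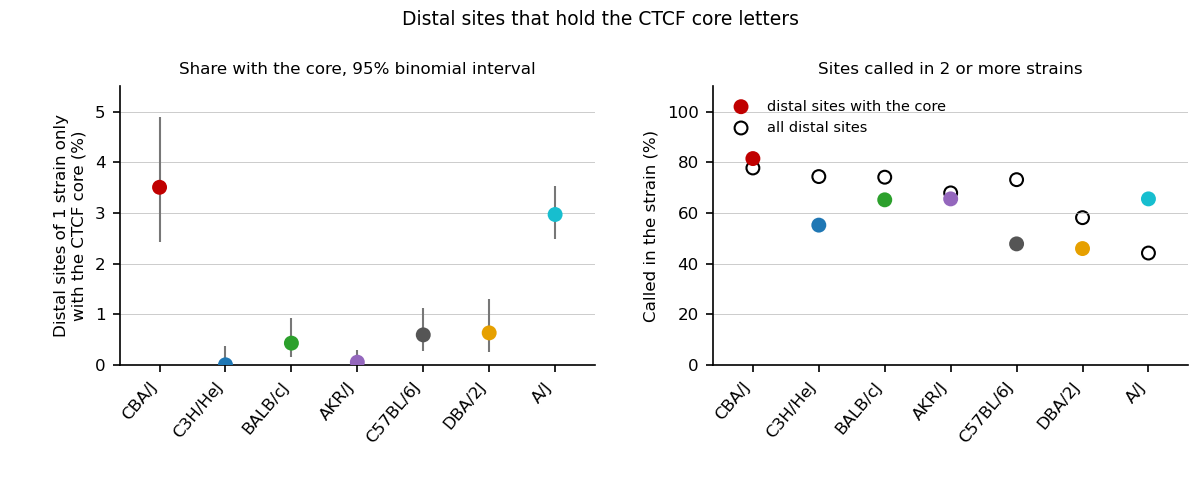
Share of the distal sites of 1 strain only that hold the CTCF core letters, with 95% exact binomial intervals (left, percent), and, for distal sites called in 2 or more strains, the share of those with the core (filled) and of all of them (open) that each strain called (right, percent). CBA/J, leftmost, reaches 3.51% on the left, next to A/J with 2.97% and the other 5 strains at or below 0.631%, and on the right its 81.5% and 77.8% lie close together.

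The C/EBP letters were in 17.9% of the CBA/J-only sites, against 5.59% (A/J) to 27.2% (AKR/J), and in 12.6% of all sites. The STAT letters were in 10.4%, against 4.71% (A/J) to 12.6% (AKR/J), and the FOXA letters in 4.75%, against 1.62% (A/J) to 9.93% (AKR/J). The SP1 letters, typical of promoters rich in CpG, were in 23.3% of the lower promoters, against 25.7% of all promoters called in 7 strains. The C/EBP, STAT and FOXA shares of CBA/J-only sites lay within the range of the other strains. Over all sites the shares were 1.51% for HNF4A, 1.21% for HNF1, 4.60% for FOXA, 8.99% for NFI, 1.498% for the CTCF core, 1.85% for ETS, 0.708% for NRF1, 9.97% for SP1, 7.54% for STAT, 8.03% for AP-1 and 7.75% for the E-box.

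Genes of liver pathways were taken from 20 lists with 340 entries, which gave 337 genes of the annotation, 300 of them with a site. A gene was assigned the sites for which it had the closest protein-coding TSS within 100 kb. A CBA/J-only site was assigned to 20 of the 300 genes, against 5.74% of all genes with a site, and a missing site to 3, against 0.7%. Of the 193 listed genes with a site called in all 7 strains, 12 had a higher site, against 2.66% of all such genes, and 5 a lower one, against 2.63%. Listed genes have more sites than others, and counted by site the shares were 1.15% CBA/J only, 0.173% missing, 2.80% higher and 1.17% lower. The lists were thus near or below the shares over all sites except for higher sites.

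Genes of fat synthesis and storage had 4 CBA/J-only sites and 1 missing site among 190, and 3 higher and no lower site among 57 called in all 7 strains. These are 2.11%, 0.526% and 5.26%, against 1.97%, 0.215% and 1.94% over all sites, and counts this low leave the shares uncertain. The higher sites were near Lpin1, Pnpla3 and Fads2. Lpin1 encodes lipin 1, the phosphatidate phosphatase that makes diacylglycerol, and a site 1629 bp upstream of its TSS ranked at 83.9 in CBA/J. It ranked at 79.7 in C3H/HeJ, 47.0 in BALB/cJ, 64.9 in AKR/J, 55.1 in C57BL/6J, 67.5 in DBA/2J and 9.99 in A/J. A site 11112 bp upstream of Pnpla3, a lipid droplet protein linked to fatty liver in humans, ranked at 80.7 in CBA/J and 43.3 (A/J) to 75.1 (C57BL/6J) in the others. Fads2, the delta-6 desaturase, had a distal site at 73.6 in CBA/J and 7.71 (A/J) to 66.3 (BALB/cJ) in the others. In all 3 cases CBA/J lay above a range that A/J opened at the low end, and all 3 kept the call when ranked anew. The missing site was that of Srebf1, and the strongest of the CBA/J-only peaks was at the promoter of Dgat1, which makes triglyceride (percentile 10.7).

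In fatty acid oxidation, Cpt1a, which brings fatty acids into mitochondria, had a lower site 1176 bp upstream of its TSS, at 5.22 in CBA/J and also low in BALB/cJ (7.10), against 66.2 in C57BL/6J. It was not called when ranked anew. The acute phase genes Itih4 and Lbp differed in opposite directions at their promoters. Itih4, a serum protease inhibitor family member, ranked at 75.8 in CBA/J and 18.5 (DBA/2J) to 72.2 (BALB/cJ) in the others, and Lbp, which binds bacterial lipopolysaccharide in serum, at 37.8 in CBA/J and 51.9 (C3H/HeJ) to 92.1 (C57BL/6J) in the others. Sds, serine dehydratase, had a lower promoter (29.98 in CBA/J, 33.7 in C57BL/6J to 77.8 in A/J). These 3 promoters kept their call when ranked anew.

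Among clock genes, the promoter of Cry1, a repressor of the circadian clock, ranked at 99.4 in CBA/J and 50.6 (DBA/2J) to 91.7 (A/J) in the others, with 99.6 in BXH2/TyJ and 98.9 in BXH19/TyJ. Hlf, a clock output factor, had a CBA/J-only site at percentile 30.9. Hepatocyte transcription factor genes had 4 CBA/J-only sites among 278 (1.44%, against 1.97% of all sites), at percentiles from 0.714 near Cebpa to 16.9 near Foxa1. The promoter of Foxa1, a pioneer factor of liver, ranked at 25.4 in CBA/J, 28.1 in DBA/2J and 31.5 in C3H/HeJ, against 47.9 to 68.3 in the other 4, and lost the call when ranked anew. In the same list, Cebpb, a leucine zipper factor of the acute phase response, had a higher site 8945 bp downstream of its TSS (75.3 in CBA/J, 35.9 in A/J to 66.6 in BALB/cJ), which kept the call. Ppara, the nuclear receptor for fatty acids, had one 25612 bp upstream (52.0 in CBA/J, 9.25 in C57BL/6J to 45.9 in DBA/2J), which lost it. Genes of cytochrome P450 drug metabolism (76 sites), conjugation and transport (87 sites) and the major urinary proteins (32 sites) had no CBA/J-only or missing site. The P450 and conjugation lists had no higher or lower site either, among 17 and 10 sites called in all 7 strains. The urinary protein list had no site called in all 7 strains. Over all sites, 1.97% were CBA/J only and 0.215% missing. Of those called in all 7 strains, 1.94% were higher and 1.82% lower. Lists this small can lack such sites at these shares, so no conclusion is drawn from their absence.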

How the data were processed

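FAIRE-seq of liver covers 18 samples, 2 male mice in each of 9 strains. The authors aligned reads with Bowtie of the 7 inbred strains to mm9 carrying the SNPs of the strain, kept reads with a single location, ran F-seq on every library and merged the 2 replicates of a strain by IDR. No version of Bowtie, F-seq or IDR was found in the labels or methods. The deposited signal of a peak is the value of the authors' caller, not stated to be scaled between strains. It was ranked within each list, and a site with several peaks took the highest rank. The deposited lists of most and least variable sites were used by position only. Reads of the BXH strains were mapped both to mm9 itself and to mm9 with C3H/HeJ SNPs, and which mapping gave the lists is not stated. For strains that carry insertions, deletions or copies absent from mm9, single-location reads could lower or raise a call.

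Sites were called by an overlap of at least 1 bp. Gene positions were those of GENCODE M1 for NCBIM37, which is mm9 (0 of the deposited peaks ended past a chromosome). Of 340 listed genes 338 matched, 1 by another symbol. Sequences are those of NCBIM37. The text names the 15 leading CBA/J-only and missing sites, the 12 leading higher and lower sites, the windows with most such sites and listed genes with such a site, some of which are not reported here. Members and lists were chosen with earlier results of these data known. The merging, ranking and calling steps were tested on simulated data. Strains were left out in turn, and peak thresholds, merging, overlap, ranking, size of the difference, promoter window and gene set were varied. Tools were Python 3.11.15, numpy 2.4.6, pandas 2.3.3, scipy 1.17.1, statsmodels 0.14.6 and matplotlib 3.10.9.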

Additional observations from a re-analysis of the deposited data

How the results depend on the processing

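No paired analysis was possible because each list combines both mice of a strain, which also leaves the spread between replicates unknown. With the 20000 strongest peaks per strain 441 sites were in CBA/J only. Leaving out 1 strain at a time gave 1100 to 1431 sites in CBA/J only, 126 to 191 missing (191 without DBA/2J), 255 to 444 higher (444 without C3H/HeJ) and 233 to 312 lower. Without A/J and DBA/2J together, chosen after seeing the data, 325 were missing. Ranking anew gave 423 lower sites and a higher share of 43.1% of calls, against 51.6%. With differences of at least 10 points 880 sites were higher and 535 lower, and with 30 points 53 and 92. The promoter share of CBA/J-only sites was 2.33% within 500 bp, 10.5% within 2500 bp and 8.39% with genes of any biotype. The cause of these shifts was not tested beyond the looser or stricter limits themselves. The other settings left each count within 1.5 times its value.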
